A study of Mus musculus with 6 samples.

Results

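Hair shaft keratins are the intermediate filament proteins that fill the cortex and cuticle cells of the growing hair. Transcripts of 10 of them (Krt31, Krt32, Krt34, Krt35, Krt81, Krt82, Krt83, Krt84, Krt85 and Krt86) were followed in whole skin, out of 23951 gene symbols in the table. They were chosen by symbol as keratins of the cortex and cuticle; the rule uses no measured value, but it was set with earlier results of these data known. RNA sequencing of poly(A) RNA was carried out on skin of 3 JunBΔep mice and 3 control mice, littermates of the C57Bl/6 strain aged 6 to 7 months. The JunBΔep mice (JunB dep in the labels) lack JunB, a subunit of the transcription factor AP-1, in cells that express keratin 5, and the controls are JunB +/+. Deletion was driven by K5-Cre, so it covers the keratinocyte lineage and leaves JunB intact in other cells of the skin. The sources used here do not state whether the controls carried Cre, which body site was taken or the stage of the hair cycle. The mutant skin is described by the study as lesional. Expression is given in FPKM, read fragments scaled to transcript length and library total, as deposited, so levels can be set side by side between genes. The mice are numbered 0, 1 and 2 within each genotype.

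A hair keratin filament is built from heterodimers of an acidic type I keratin and a basic type II keratin. The filaments are later embedded in keratin-associated proteins and crosslinked into the hard fibre. Follicles make these proteins only during anagen, the growth phase of the hair cycle. In telogen, the resting phase, the matrix that builds the shaft is gone and the old hair stays anchored as a club. Among the members, Krt31, Krt32, Krt34 and Krt35 are type I and the other 6 are type II. Krt35 and Krt85 are the earliest to appear, in the matrix and precortex, while Krt31, Krt34, Krt81, Krt83 and Krt86 follow in the cortex. Krt32 and Krt82 belong to the cuticle, the sheet of flat cells around the cortex. Krt84 is a hair-type keratin known mainly from the filiform papillae of the tongue.

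Several libraries stood apart in other genes, and these values touch the results below. Junb was at 56.9 to 72.4 FPKM in the controls, at 42.8 and 28.0 FPKM in JunBΔep mice 1 and 2, while the library labelled JunBΔep 0 had 129.6 FPKM, against its label. JunBΔep and mutant stand for the label in what follows. That library also held 3917 FPKM of an 11-gene list of oral, oesophageal and tongue epithelium, with Krt13 at 1990 FPKM, where the other 5 held 51.2 to 123 FPKM. A list of 6 liver genes summed to 1693 FPKM in control mouse 0 and to at most 29.6 FPKM elsewhere. Of 10 skeletal muscle genes, 8 were called lower in JunBΔep skin and 0 higher, but no gene of the table was called (0) with the number series of the sample titles as a block, or without control mouse 0, 1 or 2 or JunBΔep mouse 1. Of 6 epidermal keratins, Krt5, Krt10 and Krt1 were at 446 FPKM or more in each library and Krt2 was at 1.00 FPKM or less in each. The library labelled JunBΔep 0 listed Krt14 at 0 and Krt77 at 1.79 FPKM, where the other 5 had 837 FPKM or more of each. Of 52 keratins in the table, 4 (Krt14, Krt16, Krt6a and Krt75) were at 0 in that library and at 1 FPKM or more in each of the other 5. In no other library did any keratin show this. A 0 in such a table can be a failed estimate, which matters for Krt82, Krt84 and Krt85 below.

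The members sit in the 2 keratin clusters of the mouse genome. On mm9 (GENCODE vM1), the type I genes lie on chromosome 11 on the minus strand: Krt34 from 99898661 to 99902868, Krt31 from 99907960 to 99911865, Krt32 from 99942162 to 99949540 and Krt35 from 99953506 to 99957555, each with 7 exons in its longest transcript. The type II genes lie on chromosome 15, with Krt81 from 101289492 to 101294196, Krt86 from 101303909 to 101310414, Krt84 from 101355457 to 101363251 and Krt82 from 101371660 to 101381098. No position is given for Krt83, since GENCODE vM1 and RefSeq place this symbol on different sides of Krt81, nor for Krt85. RefSeq lists 5430421N21Rik as a synonym of both Krt83 and Krt86, while the table holds 5430421N21Rik as a row of its own, so which gene the row named Krt83 measures is not settled. Some members are close copies of each other. Of all 50-base windows of the transcript, 37.7% of those of Krt81 occur unchanged in Krt86 and 20.8% of those of Krt31 in Krt34, so reads can be split between such genes and their single values are less certain than their sum. Krt32, Krt82 and Krt84 share 0% of their windows with any other coding transcript. The authors allowed a read to align at up to 20 places.

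Promoter sequences are shown for Krt31 and Krt34, neighbours whose levels ran together across the mice, and for Krt32 and Krt84, which departed from them. RefSeq on GRCm38.p6 held a promoter entry (250 bases before to 50 after the start site) for 5 members, Krt31, Krt32, Krt34, Krt82 and Krt84. Capitals mark matches on either strand to TATAAA (the box of the core promoter), TTTATNG (a core bound by posterior Hox proteins, the group of Hoxc13), ATCAAAG (TCF/LEF) or TGANTCA (AP-1), and all sequences read in the direction of the gene.
Krt31, chr11:100050502-100050801, minus strand: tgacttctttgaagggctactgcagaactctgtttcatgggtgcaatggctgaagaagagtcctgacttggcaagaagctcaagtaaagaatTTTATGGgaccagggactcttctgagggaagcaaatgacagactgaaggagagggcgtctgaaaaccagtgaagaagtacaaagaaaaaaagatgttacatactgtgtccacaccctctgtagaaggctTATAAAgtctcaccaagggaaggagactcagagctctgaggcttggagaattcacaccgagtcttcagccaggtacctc
Krt34, chr11:100041505-100041804, minus strand: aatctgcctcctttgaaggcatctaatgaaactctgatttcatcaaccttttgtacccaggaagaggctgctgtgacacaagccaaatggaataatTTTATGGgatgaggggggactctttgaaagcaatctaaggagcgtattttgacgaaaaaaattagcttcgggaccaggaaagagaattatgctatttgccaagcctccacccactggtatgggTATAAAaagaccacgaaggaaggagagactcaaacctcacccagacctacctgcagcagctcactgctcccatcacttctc
Krt32, chr11:100088220-100088519, minus strand: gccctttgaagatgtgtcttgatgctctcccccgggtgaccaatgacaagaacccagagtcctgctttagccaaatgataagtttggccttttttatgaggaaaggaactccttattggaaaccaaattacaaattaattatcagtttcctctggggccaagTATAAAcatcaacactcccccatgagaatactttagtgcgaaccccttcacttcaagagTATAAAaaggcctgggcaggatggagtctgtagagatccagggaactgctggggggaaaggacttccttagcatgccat
Krt84, chr15:101532771-101533070, minus strand: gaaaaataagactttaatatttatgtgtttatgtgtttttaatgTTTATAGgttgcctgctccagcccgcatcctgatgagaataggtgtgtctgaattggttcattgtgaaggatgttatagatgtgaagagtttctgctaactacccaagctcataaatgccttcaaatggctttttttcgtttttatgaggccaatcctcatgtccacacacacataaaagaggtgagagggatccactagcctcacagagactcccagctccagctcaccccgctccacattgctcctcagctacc

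TATAAA began at position -29 from the start site in Krt31 and Krt32 and at -31 in Krt34. Krt32 held a further TATAAA at -88. The posterior Hox core was present as TTTATGG at position -158 in Krt31 and -154 in Krt34. Krt82 held the same 7 letters at -197 and their reverse complement at -227, and Krt84 held TTTATAG at -206, where it overlaps TTTATA, the reverse complement of TATAAA. These letters are common, with TTTATNG in 10.9%, TATAAA in 13.6%, TGANTCA in 7.81% and ATCAAAG in 3.73% of 32851 promoters of the same length. No match to TGANTCA or ATCAAAG lies in the 5 windows. A match describes the letters only.

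The cortex keratins spanned from near 0 to well over 100 FPKM between mice of 1 genotype. Krt31 was measured at 0.117, 0.198 and 170 FPKM in control mice 0, 1 and 2, and at 10.5, 205 and 0.997 FPKM in JunBΔep mice 0, 1 and 2. Control mouse 2 and JunBΔep mouse 1 thus carried nearly all of the transcript, and the genotypes overlapped. Krt34 had 0.0143, 0.135 and 184 FPKM in the controls and 11.1, 154 and 0.506 FPKM in the mutants, in the same order. Its level in control mouse 2 was above that in any mutant.

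The type II partners of the cortex had the same pattern. Krt81 was listed at 0 in control mice 0 and 1, was at 170 FPKM in control mouse 2, and was at 10.9, 137 and 0.862 FPKM in JunBΔep mice 0, 1 and 2. Krt83 read 0.0504, 0.0924 and 134 FPKM in the controls against 8.18, 144 and 1.09 FPKM in the mutants. For Krt86 the controls gave 0.0117, 0.0983 and 150 FPKM and the mutants 11.5, 139 and 1.34 FPKM. The row 5430421N21Rik, looked at because of its name, had 0.105, 0.219 and 236 FPKM in the controls and 18.4, 230 and 0.870 FPKM in JunBΔep mice 0, 1 and 2, so either row has control mouse 2 and JunBΔep mouse 1 highest. Mutations in the human counterparts of Krt81 and Krt86 are a known cause of monilethrix, a beaded fragile hair. All 5 cortex keratins had control mouse 2 and JunBΔep mouse 1 far above the rest, with either of them first. The library labelled JunBΔep 0 followed, then JunBΔep mouse 2, and controls 0 and 1 were last.

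Krt35 and Krt85, the early keratins of the matrix and precortex, reached the highest levels of the group, both in JunBΔep mouse 1. In control mouse 2, Krt34 at 184 FPKM was above both. Krt35 was found at 0.281, 0.504 and 175 FPKM in the controls and at 15.6, 446 and 8.10 FPKM in JunBΔep mice 0, 1 and 2. Krt85, its type II counterpart, showed 0.0479, 0.117 and 180 FPKM in the controls, with 340 and 5.68 FPKM in JunBΔep mice 1 and 2 and a listed 0 in mouse 0. JunBΔep mouse 1 exceeded control mouse 2 by 2.54 times for Krt35 and by 1.89 times for Krt85, while the same ratio was between 0.806 and 1.21 for the 5 cortex keratins. JunBΔep mouse 2 also held more of the early keratins than of any cortex keratin. The 0 of Krt85 stands beside 15.6 FPKM of Krt35 in the same library, and in the other 5 libraries Krt85 was above 0 wherever Krt35 was.

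The cuticle keratins differed from each other. Krt32 had a level in every mouse, with 7.24, 7.96 and 62.5 FPKM in the controls and 6.45, 96.7 and 5.25 FPKM in the mutants. It was the only member above 1 FPKM in control mice 0 and 1, where it made up 91.6% and 84.0% of the summed FPKM of the 10 genes. Krt82 was listed at 0 in control mouse 0 and in the library labelled JunBΔep 0, with 0.0346 and 38.1 FPKM in control mice 1 and 2 and 50.4 and 0.277 FPKM in JunBΔep mice 1 and 2. Apart from its listed 0 in the library labelled JunBΔep 0, Krt82 followed the order of the cortex keratins, and Krt32 shared only their 2 highest mice.

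Krt84, the tongue-type member, was the lowest of the 10 in control mouse 2 and in JunBΔep mouse 1. It was at 0.143, 0.337 and 10.4 FPKM in the controls and at 0.949 and 0.335 FPKM in JunBΔep mice 1 and 2. In JunBΔep mouse 1 it was at 0.0917 times its level in control mouse 2, whereas the other 9 members were at 0.806 to 2.54 times. The library labelled JunBΔep 0, with its Krt13 and Krt4 transcripts, was listed at 0 for Krt84.

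**Figure D1:**
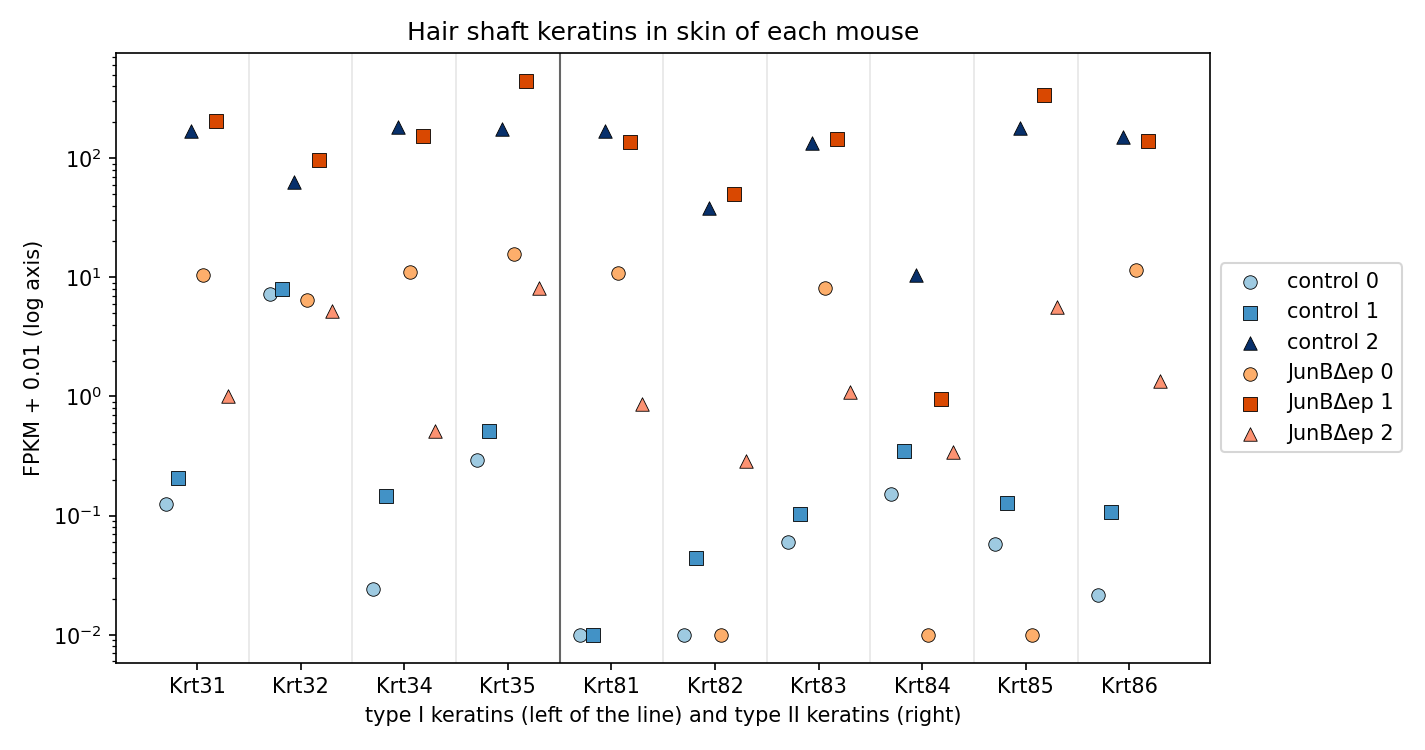
FPKM of each keratin in each mouse, plotted as FPKM + 0.01 on a log axis so that a listed 0 can be drawn at 0.01; each point is 1 mouse, blue for control and orange or red for JunBΔep. Control mouse 2 and JunBΔep mouse 1 are the 2 highest points for all 10 genes, and Krt32 alone stays above 5 FPKM in every mouse.

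The genotypes were compared on log2(FPKM + 0.5) with limma, a moderated linear model fitted over the 17021 genes whose mean reached 0.1 FPKM, as all 10 members did. This scale understates changes of low genes. A gene was called at a Benjamini-Hochberg adjusted p below 0.05. None of the 10 keratins was called (0 of 10), where 1.38% of all genes tested were called, each of them lower in JunBΔep skin. At an unadjusted p below 0.05 the count among the members was also 0, beside 7.56% of all genes tested. With only 10 members, counts of 0 are close to both of these shares. The groups overlapped in all 10, and they did not overlap in 14.8% of all genes tested. With 3 mice against 3, an exact permutation test of a single gene cannot give a two-sided p below 0.1.

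Log2 fold changes were positive for 8 of 10 members, and the SE was larger than the change for all but Krt35. Krt35 had the largest, 2.94 (SE 2.51, n = 3 mice per group, adjusted p = 0.723 from limma), from means of 58.7 ± 101 FPKM (SD) in controls and 157 ± 251 FPKM (SD) in JunBΔep mice. The 5 cortex keratins lay between 1.64 and 2.02 with SEs of 2.63 to 2.82. Krt85 was at 1.37 (SE 3.15) and, with its listed 0 counted as missing, at 3.54. Krt82 was at 0.31 (SE 2.41) and 1.53 in the same order, with its listed 0 in control mouse 0 kept. Krt32 was at -0.03 (SE 1.34), and Krt84 at -1.09 (SE 1.12) and -0.71 with its 0 as missing. The adjusted p of the members ran from 0.723 to 0.995 in limma. Their median log2 fold change was 1.74, beside 0.03 over all genes tested. It was 4.44 without control mouse 2, -0.12 without JunBΔep mouse 1, 3.38 without JunBΔep mouse 2, 0.32 without control mouse 0, 0.40 without control mouse 1 and 2.02 without the library labelled JunBΔep 0. With the number series of the sample titles as a block, the median was 0.31 and the 5 cortex keratins lay between 0.23 and 0.60.

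**Figure D2:**
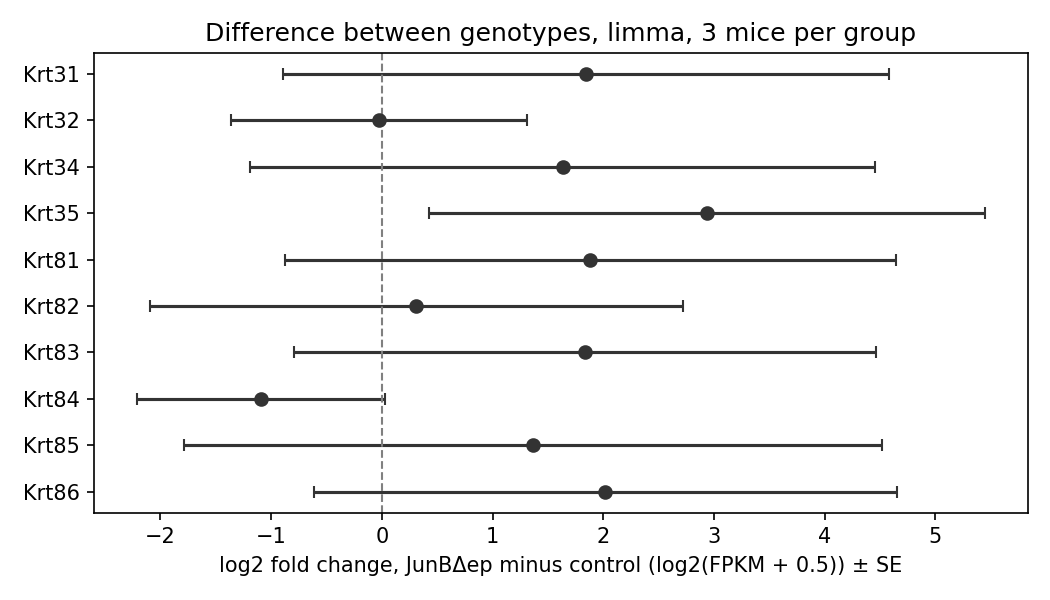
Log2 fold change of each keratin between JunBΔep and control skin on the log2(FPKM + 0.5) scale (horizontal axis), with bars of 1 standard error from limma and 3 mice per group. Only Krt35, at 2.94 with an SE of 2.51, has a bar that stays clear of 0, and its adjusted p was 0.723.

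Spread between mice of 1 genotype was the main feature of these genes. The residual SD of the 10 on the log2 scale had a median of 3.97, against 0.343 over all genes tested. Krt85 was at 4.76, above 99.9% of the genes tested, and 8 of the 10 lay above the 99th percentile. The spreads of Krt82, Krt84 and Krt85 count their listed 0 in the library labelled JunBΔep 0 as a level, although it may be a failed estimate. Krt84 was the lowest of the members at 1.68, still above 96.8% of genes. Among the controls alone, the highest mouse exceeded the lowest by 1459 times for Krt31 and by 8.63 times for Krt32.

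Control mouse 2 and JunBΔep mouse 1 were the 2 highest libraries for 10 of 10 members, a pair that was highest in 7.83% of all genes tested. Both libraries belong to the higher number series of the sample titles described below, as does JunBΔep mouse 2. Across genes, their deviations from the group means correlated at 0.46, the highest value of any control with any mutant. Control mouse 2 and JunBΔep mouse 1 differ in genotype and in Xist. Xist, the transcript of the inactive X chromosome in females, was at 0.0274 FPKM in control mouse 2 and 34.2 FPKM in JunBΔep mouse 1, and the other 4 libraries held 2 low and 2 high values. The sample titles fall in a lower and a higher number series of 3 mice each, of which the meaning is not stated. In the higher series, with 1 control and 2 mutants, the mean log2 level of all 10 members was lower in JunBΔep skin, with a median difference of -3.19, although JunBΔep mouse 1 exceeded control mouse 2 in 6 of them. In the lower series, with 2 controls and 1 mutant, 6 of 10 were higher and the median was 3.996, a value that rests on the library labelled JunBΔep 0. The median difference thus had opposite signs in the 2 series, which was not tested.

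The make-up of the keratin transcripts also differed between mice. The 10 genes summed to 1274 FPKM in control mouse 2 and 1713 FPKM in JunBΔep mouse 1, which is 0.238% and 0.356% of all FPKM in those libraries. The sum was 74.3 FPKM in the library labelled JunBΔep 0, 24.4 FPKM in JunBΔep mouse 2, and 7.90 and 9.48 FPKM in control mice 0 and 1. Krt35 made up 33.2% of the sum in JunBΔep mouse 2 and 26.0% in JunBΔep mouse 1, against 13.8% in control mouse 2. For Krt85 these shares were 23.2%, 19.9% and 14.1%. The mean of the 5 cortex keratins stood at 0.922 times the level of Krt35 in control mouse 2, 0.669 times in the library labelled JunBΔep 0, 0.349 times in JunBΔep mouse 1 and 0.118 times in JunBΔep mouse 2. The ratio was thus lower in JunBΔep mice 1 and 2, and in the library labelled JunBΔep 0, than in control mouse 2. In control mice 0 and 1 the same value was 0.138 and 0.208, from levels of Krt35 of at most 0.504 FPKM. No test was made of these ratios, which have 1 value per mouse and were looked at after the levels were known.

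**Figure D3:**
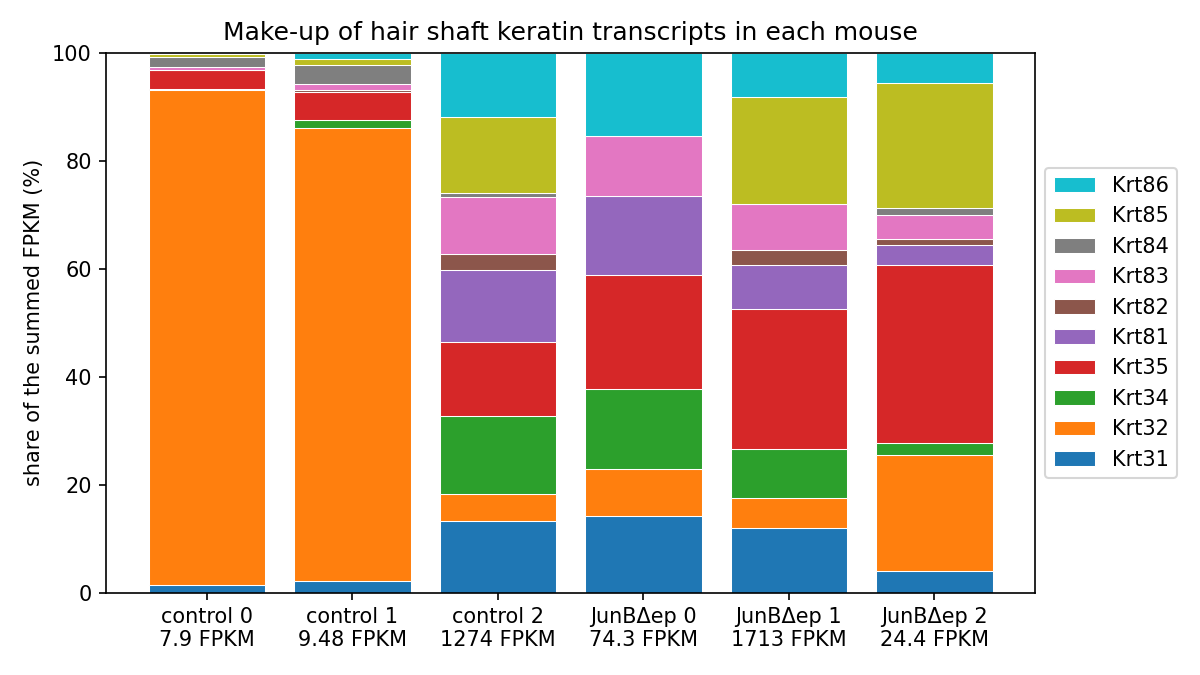
Share of each keratin in the summed FPKM of the 10 genes, in percent, 1 bar per mouse with its sum under the bar. Krt32 fills 91.6% and 84.0% of the bar in control mice 0 and 1, and Krt35 and Krt85 widen in JunBΔep mice 1 and 2; Krt85 is absent from JunBΔep mouse 0, where it is listed at 0.

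Type I and type II transcripts were near balance where they were abundant. The type I members summed to 592 FPKM and the type II members to 683 FPKM in control mouse 2, a ratio of 0.867. The ratio was 1.11 in JunBΔep mouse 1, 1.55 in JunBΔep mouse 2 and 1.43 in the library labelled JunBΔep 0, where 3 type II members are listed at 0. It was 30.2 and 12.95 in control mice 0 and 1, where Krt32 is most of the type I sum.

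Other hair-forming genes ran with the members, which was examined on hand-written lists and on all symbols that begin with Krtap. The hair keratins outside the members (Krt33a, Krt33b, Krt36, Krt39 and Krt40) all had their 2 highest values in control mouse 2 and JunBΔep mouse 1. Krt33a, a further cortex keratin, was the most abundant, at 279 and 240 FPKM there and at 0.0960 and 0.258 FPKM in control mice 0 and 1. The keratin-associated proteins, which form the matrix between the filaments, summed over 52 symbols to 9362 FPKM in control mouse 2 and 5845 FPKM in JunBΔep mouse 1, with 608 and 39.7 FPKM in JunBΔep mice 0 and 2 and 9.13 and 20.5 FPKM in control mice 0 and 1. That sum was higher in control mouse 2 than in JunBΔep mouse 1, the reverse of the keratin sum. In none of these lists was a gene called in either direction (0 of 5 and 0 of 51 tested). Their median log2 fold changes were 1.20 and 1.31.

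In the inner root sheath, the rigid sleeve that moulds the growing shaft, and nearby layers, 9 of 10 keratins had the same 2 highest libraries. The 10 genes summed to 3783 FPKM in control mouse 2 and 6577 FPKM in JunBΔep mouse 1, against 271 to 906 FPKM in the other 4 libraries. Krt79, the exception, was at 378, 230 and 246 FPKM in the controls and at 607, 415 and 203 FPKM in JunBΔep mice 0, 1 and 2, and it makes up most of the sum in the 4 low libraries. Krt71 was at 1318 and 2160 FPKM in the former, at 120 and 32.9 FPKM in JunBΔep mice 0 and 2, and at 0.191 and 0.344 FPKM in control mice 0 and 1. Krt71 ranks the mice as the cortex keratins do, which differ among themselves in which of the 2 highest mice comes first. A list of 17 further hair shaft genes holds 6 Krtap genes already counted above; of the remaining 11, all tested, 7 had the same 2 highest libraries. S100a3, a calcium-binding protein of the cuticle, was at 714 and 1493 FPKM in control mouse 2 and JunBΔep mouse 1, 76.2 and 12.8 FPKM in JunBΔep mice 0 and 2, and 11.3 and 6.80 FPKM in control mice 0 and 1. Tgm3, a transglutaminase of the follicle and the epidermis, differed, with its highest value of 60.7 FPKM in the library labelled JunBΔep 0. No gene of these lists was called (0 of 10 and 0 of 11 tested), and their median log2 fold changes were 1.99 and 1.17.

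Regulators of the hair follicle were examined in the same way. Of 16 such genes, 12 were highest in control mouse 2 and JunBΔep mouse 1, 0 were called, and the median log2 fold change was 0.46. Hoxc13, a homeobox factor that activates hair keratin genes, was at 3.47, 4.54 and 32.2 FPKM in the controls and at 3.31, 79.1 and 4.85 FPKM in JunBΔep mice 0, 1 and 2. Unlike the cortex keratins, it was no higher in the library labelled JunBΔep 0 than in control mice 0 and 1. Shh, the matrix signal of growing follicles, was at 3.28 and 16.7 FPKM in the high libraries, at 0.310 and 0.681 FPKM in JunBΔep mice 0 and 2, and at 0.112 and 0.0994 FPKM in control mice 0 and 1. Lef1, an effector of Wnt signalling with known sites in hair keratin promoters, was at 10.9 and 39.2 FPKM in the high libraries and at 0.427 to 2.02 FPKM in the rest. All 3 were higher in JunBΔep mouse 1 than in control mouse 2, as Krt35 and Krt85 were.

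**Figure D4:**
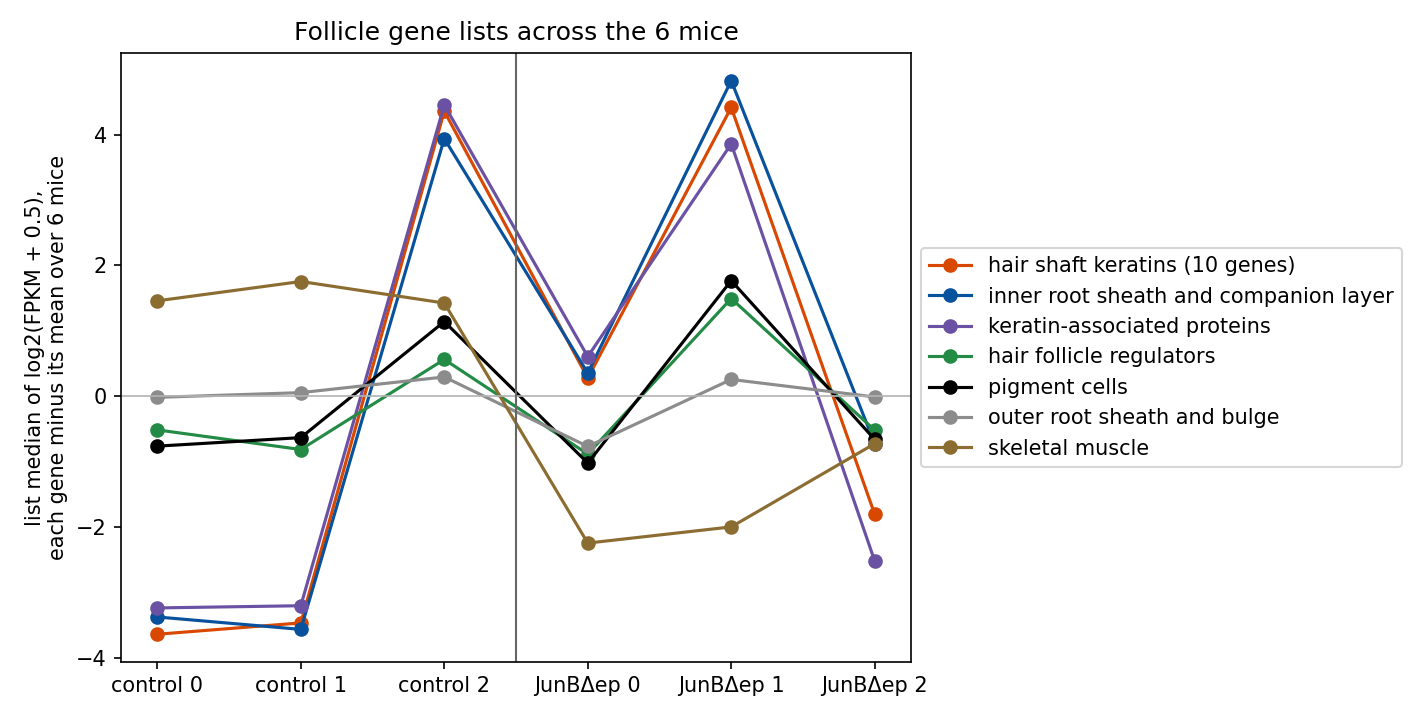
Median over each gene list of log2(FPKM + 0.5) after subtracting each gene's mean over the 6 mice, 1 point per mouse, controls left of the vertical line and JunBΔep mice right of it. The hair shaft keratins stand at 4.36 in control mouse 2 and 4.42 in JunBΔep mouse 1 and at -3.64 and -3.47 in control mice 0 and 1; the sheath and keratin-associated lists run with them, and skeletal muscle separates by genotype instead.

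Markers of other cells moved with the members to different degrees, and their part in the keratin values was not tested. Of 10 pigment cell genes tested, 9 had the same 2 highest libraries, and the list summed to 95.8 and 132.5 FPKM there and to 11.4 to 26.6 FPKM in the others. In the outer root sheath and bulge list, the permanent part of the follicle, 5 of 10 genes had that pair highest, the sum ran from 2013 to 3440 FPKM in controls and from 2237 to 4209 FPKM in JunBΔep mice, and the median log2 fold change was -0.24. Krt15, a keratin of the resting stem cell region, was at 1117 to 2388 FPKM in the controls, at 947 and 1374 FPKM in JunBΔep mice 1 and 2, while the library labelled JunBΔep 0 had 80.7 FPKM. Krt17 of the same list went the other way there, at 4025 FPKM against 626 to 837 FPKM in the controls and 1319 and 713 FPKM in JunBΔep mice 1 and 2, and it makes up most of that library's sum. For the dermal papilla the pair was highest in 2 of 8 genes, and the sum stayed between 24.7 and 37.7 FPKM. In interfollicular epidermis it was highest in 0 of 9 tested, and its sum ran from 8325 to 12980 FPKM in controls and from 8069 to 12690 FPKM in the mutants. Dividing cell genes summed to 132, 58.9 and 138 FPKM in control mice 0, 1 and 2. The sums were 311, 369 and 80.0 FPKM in JunBΔep mice 0, 1 and 2, so JunBΔep mouse 2 was below control mice 0 and 2. The stress keratins Krt6a, Krt6b and Krt16 summed to 47.0 to 70.0 FPKM in the controls and to 126 and 70.0 FPKM in JunBΔep mice 1 and 2, and all 3 are listed at 0 in mouse 0. The skeletal muscle sum was lower in each library labelled JunBΔep (1958 to 4716 FPKM) than in each control (20450 to 27080 FPKM), and control mouse 2 had the lowest sum of the controls. Adipocyte genes summed to 1210 to 3839 FPKM in controls, to 2089 and 8949 FPKM in JunBΔep mice 1 and 2, and to 59.0 FPKM in the library labelled JunBΔep 0. In bulk skin, the number of follicles in growth and the keratin RNA per follicle cannot be told apart, and the body site taken is not known.

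Among 13608 genes outside the members and the hand-written lists, each with a mean of 1 FPKM or more, and with Krtap genes kept unless a hand-written list names them, likeness was measured as the root mean square difference between a gene's log2(FPKM + 0.5) profile over the 6 mice, centred on its mean, and the median profile of the members. The 10 closest genes were Gm11570 (0.241), Krtap3-3 (0.298), Gm11563 (0.324), Krtap2-4, Krtap4-2, Krtap4-7, Gprc5d (0.386), Krtap1-3, Krtap5-2 and Gm10318 (0.421), where the median over all genes compared was 3.37. Of these, 6 are keratin-associated protein genes, already counted in the Krtap sum above, and 3 are named only as predicted genes. Gprc5d, an orphan receptor of hard keratinizing tissue, was at 0.0350, 0.0549 and 101 FPKM in the controls and at 8.65, 133 and 0.449 FPKM in JunBΔep mice 0, 1 and 2. Among the members, Krt83 was closest to the median profile at 0.118, and Krt84 (2.54), Krt32 (2.02) and Krt85 (1.86) were farthest from it. The distances of Krt84 and Krt85 count their listed 0 in the library labelled JunBΔep 0 as a level. How far they rest on it was not tested.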

How the data were processed

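Poly(A) RNA of whole skin from 3 control and 3 JunBΔep mice was sequenced with a strand-specific kit. The authors aligned the reads to mm9 with TopHat 2.0.10, Bowtie 1.0.0 and SAMtools 0.1.19, used iGenomes transcript annotation and deposited FPKM values per gene and mouse. Cufflinks is among the tools of the submitters' processing notes; the sources used here do not state which program made the FPKM values or how libraries were scaled. A DESeq2 test by the authors used counts, which were not analysed here.

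Library sums of FPKM lie between about 481100 and 630400. Read numbers are unknown, and no counting interval can be given. Genes below 0.15 FPKM share a modal ratio to control mouse 0 (14.2% to 17.4% of them, to 3 decimals on the log2 scale), which gives scaling totals of 0.955 to 1.14 times that library. Every column was used.

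Values were compared as log2(FPKM + 0.5) in R 4.3.3 by limma 3.58.1 (trended prior variance, genotype as the only term) for genes whose mean reached 0.1 FPKM. All p-values are two-sided and were adjusted over all genes tested by the Benjamini-Hochberg method. The fit was run on simulated data with 200 changed genes, and no result of that run is used here. The p-values rest on the spread between mice within a genotype. Whether the number series of the sample titles mark litters is not stated. The members, gene lists, motifs and rules were chosen with earlier results of these data known, so no list was tested as a set. Genes named are the members, Junb, genes of the hand-written lists, and the 10 genes outside those lists most like the members, among which Krtap genes could fall because their set was taken by symbol and not written by hand; Xist, 5430421N21Rik and the ratios to Krt35 were chosen after values were seen. Windows of 50 bases were compared between GENCODE vM1 coding transcripts. Tables and figures were made in Python 3.11.15 (pandas 2.3.3; matplotlib 3.10.9).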

Additional observations from a re-analysis of the deposited data

How the results depend on the processing

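No member was called under any of 16 other settings, and the adjusted p of a member from limma ran from 0.486 to 0.999 over all settings. The settings were a pseudocount of 0.1 or 1, dropping the filter or raising it to 1 FPKM, median-ratio and quantile scaling, and limma without the trend. Others were a replicate block, a block on the number series of the titles and each mouse left out. A last setting, chosen after the data were seen, counted the 3 listed zeros of the library labelled JunBΔep 0 as missing. Listed zeros of members in control mice 0 and 1 were kept, so that setting could only raise the mutant means. The number of genes called, 235, was 0 with the replicate block and 0 with the number series block, and ran from 0 to 254 with 1 mouse left out (0 without control replicate 0, 1 or 2 or JunBΔep replicate 1, and 135 without JunBΔep replicate 0). Across genes, deviations from the group means correlated at 0.120, -0.23 and -0.43 between mice numbered 0, 1 and 2, so the numbers do not pair the mice and the loss of calls under the replicate block is no measure of a weaker effect. No control correlated best with the mutant of its own number. Member fold changes are the same with the replicate block.

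Of 160 member fold changes over these settings, 14 changed sign. Krt32 was 0.013 after quantile normalization. With the number series block, Krt82 was -1.33 and Krt85 -1.10, the 5 cortex keratins fell to between 0.23 and 0.60, and the member median went from 1.74 to 0.31. With 1 mouse left out, the log2 fold change ran from -0.046 to 4.52 for Krt31, -1.34 to 0.96 for Krt32, -0.20 to 4.41 for Krt34, -1.80 to 2.39 for Krt82, -1.83 to 0.20 for Krt84 and -1.16 to 4.13 for Krt85. The lowest of these came without JunBΔep replicate 1 except for Krt84, and the highest without control replicate 2. Krt35, Krt81, Krt83 and Krt86 stayed above 0 throughout. The unknown read number limits what can be said of levels near 0.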
